A study of Mus musculus with 16 samples.

Results

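Matrix metalloproteinases are zinc enzymes that cut collagens and other matrix proteins, and 10 of their genes were followed in the subchondral bone of the mouse knee, the bone plate that lies under the joint cartilage. Mmp2, Mmp3, Mmp8, Mmp9, Mmp11, Mmp13, Mmp14, Mmp16, Mmp19 and Mmp23 were taken as every non-control probe with that gene name on 16 single-colour Agilent arrays, 14 of 56605 probes in all. A probe was tested when 4 or more of the 16 arrays had its signal well above background, and 13 of the 14 probes were. They gave 9 of the 28250 genes tested, because the single Mmp3 probe did not pass.

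Post-traumatic osteoarthritis is modelled in these mice by cutting the ligament that holds the medial meniscus (destabilization of the medial meniscus, DMM). The arrays came from 4 groups of 4 male wild-type C57BL6 mice, 1 joint per mouse: DMM at 6 weeks, sham surgery at 6 weeks, DMM at 1 week and sham surgery at 1 week. Every mouse was operated in both knees at 10 to 12 weeks of age, and sham joints were opened to show the ligament without cutting it, so all 4 groups had an opened joint. The tissue was laser-dissected from 10 µm sections of the medial tibial plateau and the pieces of a joint were pooled; each array received 100 ng of labelled RNA from 1 joint. Time after surgery and the age of the mouse moved together, and their parts in a difference between 6 and 1 weeks cannot be told apart.

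Probes for all 7 osteoblast, all 5 osteocyte and all 8 osteoclast markers were well above background on all 16 arrays, as bone would give. So were all 10 neutrophil markers, all 5 erythroid markers and all 4 B cell markers, so RNA of marrow cells was in the dissected tissue, and 8 of 9 cartilage markers were above background on every array as well. Levels below are log2 signals minus the 75th percentile of their array, so that 0 is the 75th percentile, and they cannot be set against each other between probes. The signal at that percentile ran from 329 to 873, with sham_6wk replicate 2 the dimmest array (next lowest 471). There were 2 slides, and each carried 8 arrays, 2 from every group. In bulk tissue, fewer cells of a type and less RNA per cell cannot be told apart.

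The enzymes are made as inactive precursors, are switched on when the propeptide is removed, and are held in check by tissue inhibitors (Timps). In bone, Mmp9 and Mmp14 are known from osteoclasts, Mmp13 from osteoblasts and hypertrophic chondrocytes, and Mmp8 is stored in the granules of neutrophils. Mmp2 and Mmp9 are the gelatinases, Mmp8 and Mmp13 are collagenases, Mmp3 and Mmp11 are stromelysins, and Mmp14, Mmp16 and Mmp23 sit in the membrane. A change in a transcript says nothing of how much active enzyme there is.

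Of the 14 probes, 4 are shown because the results below turn on them. They are the 60-base sequences on the arrays, written 5′ to 3′, with positions on mouse assembly mm9 from the scanner files. Which exon each probe lies in was not analysed here.
Mmp9 A_66_P130121: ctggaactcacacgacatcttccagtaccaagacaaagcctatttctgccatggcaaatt
Mmp14 A_52_P304128: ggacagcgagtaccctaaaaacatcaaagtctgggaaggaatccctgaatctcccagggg
Mmp16 A_55_P2821761: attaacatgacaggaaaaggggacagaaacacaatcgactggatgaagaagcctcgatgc
Mmp19 A_66_P130161: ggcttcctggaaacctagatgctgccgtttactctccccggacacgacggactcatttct
The Mmp9 probe matches chr2:164779091-164780300 on the plus strand, a stretch of 1210 bases for 60 probe bases, and the Mmp16 probe matches chr4:17914830-17923362, a stretch of 8533 bases, so both bridge a gap in the genome. The Mmp14 probe lies at chr14:55058775-55058834 and the Mmp19 probe at chr10:128235282-128235341, both on the plus strand and without a gap.

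The clearest difference among the metalloproteinases was with time after surgery and not with destabilization. Averaged over both surgeries, 8 of the 9 tested genes had a lower mean at 6 weeks than at 1 week, with a median log2 difference of -0.76, against 0.04 over all 28250 genes. Of all genes, 44.4% had a lower mean at 6 weeks. Mmp9 alone among the 9 passed an adjusted p of 0.05 (limma, Benjamini-Hochberg over all genes), against 0.874% of all genes called in either direction and 0.234% called lower. At an unadjusted p of 0.05, 6 of the 9 were lower, against 8.18% of all genes. The members were chosen with earlier results of these data known, so these counts describe them and do not test them as a set. Of 9 other matrix metalloproteinases tested, 6 had a lower mean, with a median of -0.13. Without sham_6wk replicate 2, an alternative chosen after seeing the data, 9 of 9 were lower with a median of -0.76. There 2 of the 9 were called, beside 1502 of 28250 genes in all, and 5 of the 9 had an unadjusted p under 0.05. Leaving out each array in turn gave 0 to 1502 called genes, and this array gave the most.

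**Figure D1:**
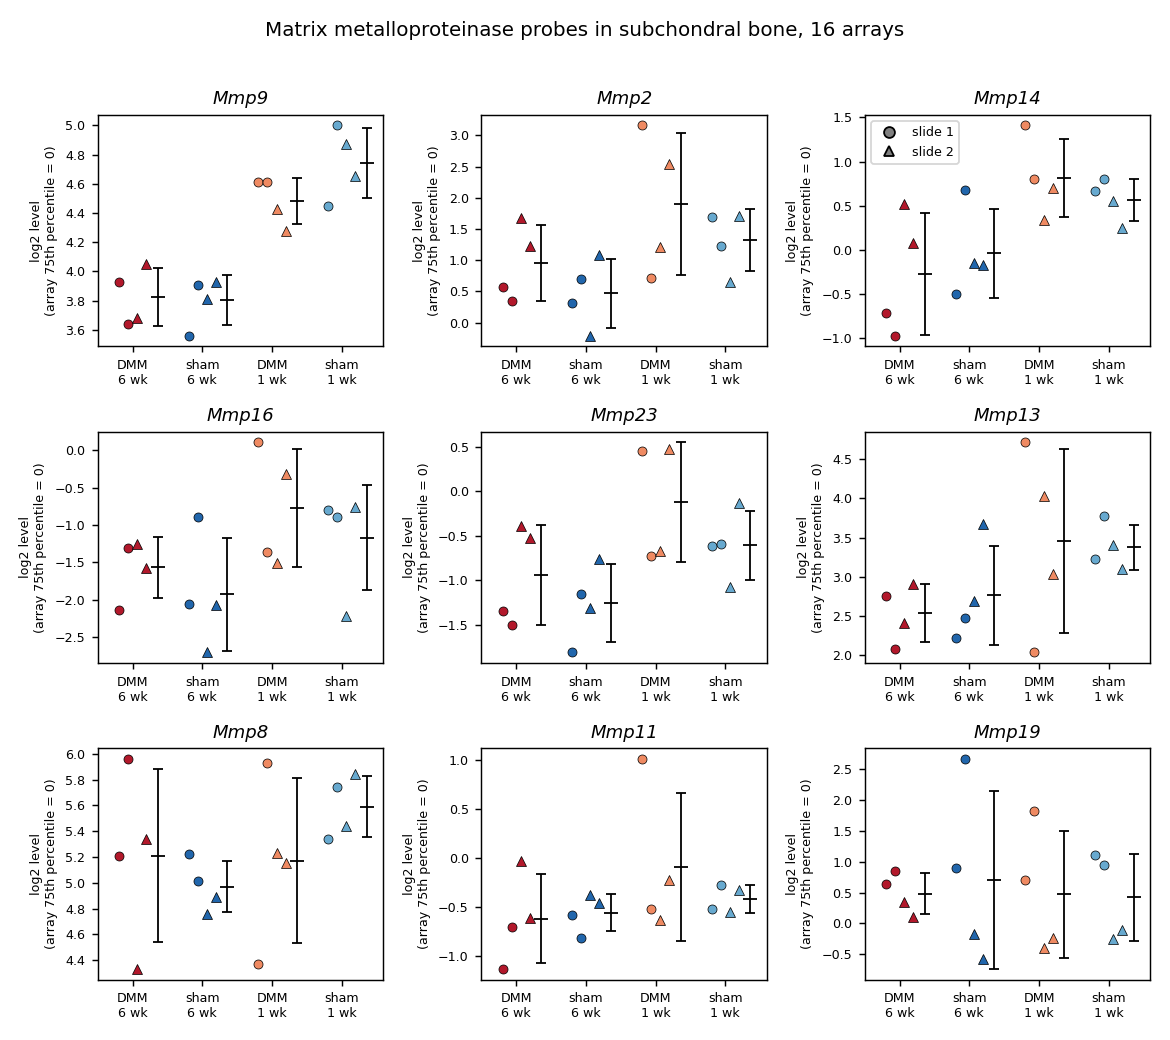
Log2 level of the probe that stands for each of 9 tested matrix metalloproteinase genes on the 16 arrays (0 is the array's 75th percentile), with DMM before sham and 6 weeks before 1 week. Each point is 1 joint, circles are slide 1 and triangles slide 2, and bars are the mean and SD of 4 joints. The 8 Mmp9 values at 6 weeks all lie below the 8 at 1 week, while the groups overlap in the averaged comparison for the other 8 genes.

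Mmp9, the gelatinase with which osteoclasts and neutrophils open matrix, fell to 0.574 of its 1-week level at 6 weeks. Its probe A_66_P130121 read 3.93, 3.64, 3.68 and 4.05 in DMM joints at 6 weeks and 3.56, 3.91, 3.81 and 3.93 in sham joints at 6 weeks. At 1 week it read 4.61, 4.61, 4.43 and 4.28 after DMM and 4.45, 5.00, 4.87 and 4.65 after sham. Every joint at 6 weeks was lower than every joint at 1 week, which 0.287% of all genes showed. The mean was 3.81 ± 0.17 at 6 weeks and 4.61 ± 0.24 at 1 week (SD, n = 8 each), a log2 difference of -0.80 ± 0.12 (SE, adjusted p = 0.0347). The difference was -0.91 within slide 1 and -0.69 within slide 2.

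A second Mmp9 probe gave nearly the same order of joints (r = 0.97 and rho = 0.94 over 16 arrays, permutation test, adjusted p = 2.5e-05 and 5e-05 over 5 pairs of probes). Without the 2 farthest arrays r was 0.96, and it was 0.87 within 6 weeks and 0.88 within 1 week. Probe A_52_P507214 read 3.60, 3.35, 3.50 and 3.86 in DMM joints at 6 weeks, 3.36, 3.96, 3.69 and 3.84 in sham joints at 6 weeks, 4.67, 4.22, 4.27 and 4.06 in DMM joints at 1 week, and 4.27, 4.85, 4.63 and 4.53 in sham joints at 1 week. Its groups at 6 and 1 weeks did not overlap either, and a fit of all 43268 probes gave -0.79 ± 0.14 for it (adjusted p = 0.0347, with 0.832% of probes called). Within each surgery the Mmp9 values at 6 and 1 weeks were also separate, with -0.66 ± 0.17 after DMM (adjusted p = 0.256) and -0.94 ± 0.17 after sham (adjusted p = 0.585), a separation that 2.43% and 3.15% of all genes showed. Limma called 0 genes in either of these comparisons (0% called). After sham surgery Mmp9 had the smallest unadjusted p of all 28250 genes. The adjusted p of the averaged difference lies near the threshold: it ran from 0.0133 to 0.0973 when each array was left out in turn, and the call held without sham_6wk replicate 2, sham_1wk replicate 3, DMM_6wk replicate 3 or DMM_1wk replicate 3 and was lost without any of the other 12. The difference itself stayed between -0.85 and -0.76.

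Markers of osteoclasts, the bone-resorbing cells, were lower at 6 weeks in the same comparison. All 8 had a lower mean, with a median of -0.79, and none of the 8 was called (Calcr, the calcitonin receptor, -1.25 ± 0.31, adjusted p = 0.0649; Dcstamp, needed for osteoclast fusion, -1.17 ± 0.33, adjusted p = 0.0913). A summed linear level adds the signals of probes that differ in brightness, so the brightest probes of a list weigh most in it. For osteoclast markers this sum ran from 272 to 511 in DMM joints and 208 to 556 in sham joints at 6 weeks. At 1 week it ran from 380 to 745 in DMM joints and 474 to 737 in sham joints. Neutrophil markers differed less: 8 of 10 had a lower mean, with a median of -0.15, and 0 were called. Their summed level ran from 2310 to 3330 in DMM joints and 2150 to 2860 in sham joints at 6 weeks, against 1850 to 3450 in DMM joints and 2490 to 3050 in sham joints at 1 week. No defining marker of either list was below background on any array. Erythroid and B cell markers had higher means at 6 weeks: all 5 erythroid markers (median 1.22, 1 called, Alas2 at 1.30 ± 0.27, adjusted p = 0.0434) and all 4 B cell markers (median 0.94, 1 called, Ms4a1 at 1.35 ± 0.30, adjusted p = 0.049). Macrophage markers did not move as a list: 4 of 6 were higher (median 0.06, 0 called), with 4 of 6 higher after DMM and 5 of 6 lower after sham. Of 4 endothelial markers 3 were lower (median -0.35, 0 called). Summed B cell markers ran from 16.3 to 22.3 in DMM joints and 13.1 to 23.4 in sham joints at 6 weeks, against 6.01 to 13.7 in DMM joints and 4.57 to 10.2 in sham joints at 1 week, and summed erythroid markers from 178 to 349 in DMM joints and 69.4 to 262 in sham joints at 6 weeks, against 31.6 to 187 in DMM joints and 49.6 to 143 in sham joints at 1 week. Cartilage markers had higher means as well, 7 of 9 with a median of 0.82, and 1 was called (Chad, chondroadherin, at 1.68 ± 0.36, adjusted p = 0.0443). Their summed level ran from 17.7 to 58.9 in DMM joints and 24.5 to 66.5 in sham joints at 6 weeks, against 18.1 to 76.5 in DMM joints and 17.5 to 36.3 in sham joints at 1 week. All 4 adipocyte markers (median 0.45) and all 4 skeletal muscle markers (median 0.56) had higher averaged means too, with 0 called. For adipocyte markers the surgeries went opposite ways: all 4 were lower after DMM (median -0.12) and all 4 higher after sham (median 1.01). Of the muscle markers, 3 were higher after DMM (median 0.58) and 4 after sham (median 0.88). Each level is relative to the rest of the RNA in its sample. The part of these cells in the Mmp9 difference was not tested.

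**Figure D2:**
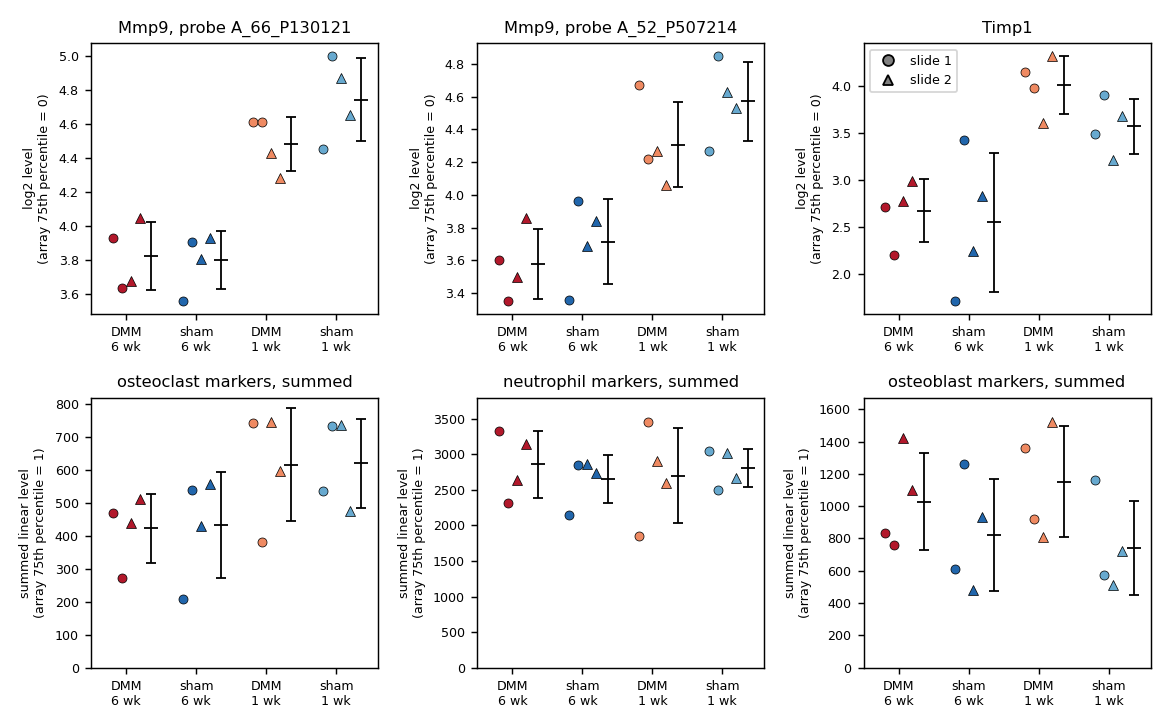
Upper row, log2 levels of both Mmp9 probes and of the inhibitor Timp1 (0 is the array's 75th percentile); lower row, summed linear levels of osteoclast, neutrophil and osteoblast markers (the array's 75th percentile is 1). Points are joints, circles slide 1 and triangles slide 2, and bars are mean and SD of 4 joints. Both Mmp9 probes separate 6 weeks from 1 week, Timp1 nearly so, and the summed markers overlap between all groups.

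Mmp2, the other gelatinase, had the largest averaged difference of the 9 genes when each is read by its probe of highest mean, though its groups overlapped and another Mmp16 probe gave a larger one. It read 0.57, 0.35, 1.68 and 1.23 in DMM joints at 6 weeks and 0.31, 0.70, -0.21 and 1.08 in sham joints at 6 weeks, against 3.16, 0.71, 1.21 and 2.54 after DMM and 1.69, 1.23, 0.65 and 1.70 after sham at 1 week. Of 8 joints at 6 weeks, 7 lay below the 1-week mean. The averaged log2 difference was -0.90 ± 0.34 (SE, adjusted p = 0.203), and -1.21 within slide 1 and -0.58 within slide 2.

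The membrane enzymes Mmp14, Mmp16 and Mmp23 ran the same way without passing the adjusted threshold. Mmp14, which activates the Mmp2 precursor at the cell surface, read -0.71, -0.97, 0.52 and 0.08 in DMM joints at 6 weeks and -0.50, 0.68, -0.15 and -0.17 in sham joints at 6 weeks. At 1 week it read 1.41, 0.80, 0.34 and 0.70 after DMM and 0.67, 0.80, 0.55 and 0.25 after sham. All 8 joints at 6 weeks lay below the mean of the 8 at 1 week, but 1 DMM joint and 1 sham joint at 6 weeks reached into the 1-week range. The averaged difference was -0.84 ± 0.24 (adjusted p = 0.0912). It passed the threshold without sham_6wk replicate 2 (adjusted p = 0.0311) and without DMM_6wk replicate 3 (adjusted p = 0.0437), and the difference was -1.30 within slide 1 and -0.39 within slide 2.

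Mmp16, a membrane enzyme related to Mmp14, was read by 3 probes. Probe A_55_P2821761 read -3.33, -3.19, -2.02 and -2.23 in DMM joints at 6 weeks and -3.30, -2.15, -3.34 and -2.62 in sham joints at 6 weeks, against -0.94, -1.52, -2.22 and -0.82 after DMM and -1.43, -1.89, -2.70 and -1.99 after sham at 1 week. The 6-week joints sat low and the 1-week joints high, with overlap, and the averaged difference was -1.09 ± 0.28 (probe-level fit, adjusted p = 0.0726). Probe A_55_P2803702, which stands for the gene because its mean is the highest, gave -0.78 ± 0.32 (adjusted p = 0.233). The dimmest probe, A_55_P2731321, was well above background on 12 of 16 arrays, all 8 at 1 week but 2 of 4 DMM and 2 of 4 sham arrays at 6 weeks. It read -6.59 to -4.27 in DMM joints and -5.30 to -3.32 in sham joints at 6 weeks, against -4.10 to -2.23 in DMM joints and -4.51 to -3.10 in sham joints at 1 week, and no size is given for its difference because values below background enter it. The 2 probes above background on all 16 arrays had r = 0.86 and rho = 0.86 (permutation test, adjusted p = 2.5e-05 and 0.00013 over 5 pairs of probes), with r = 0.79 without the 2 farthest arrays and 0.85 and 0.95 within slides 1 and 2.

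Mmp23, a membrane enzyme without the hemopexin domain of most members, read -1.35, -1.50, -0.39 and -0.52 in DMM joints at 6 weeks and -1.81, -1.15, -1.31 and -0.76 in sham joints at 6 weeks. At 1 week it read 0.45, -0.73, -0.67 and 0.47 after DMM and -0.62, -0.59, -1.08 and -0.13 after sham. The 8 joints at 6 weeks all lay below the 1-week mean, and the ranges overlapped. Its averaged difference was -0.74 ± 0.25 (adjusted p = 0.149), and -1.08 within slide 1 and -0.39 within slide 2. Beside these genes, 5 of 7 osteoblast markers (median -0.51) and 4 of 5 markers of fibroblasts and synovial lining (median -0.33) had a lower mean at 6 weeks, with 0 called. Of 5 osteocyte markers, 4 had a lower mean as well (median -0.20, 0 called). Summed fibroblast markers ran from 23.9 to 36.9 in DMM joints and 21.7 to 32.7 in sham joints at 6 weeks, against 29.3 to 67.3 in DMM joints and 24.8 to 45.7 in sham joints at 1 week, with the marker Dpt above background on 0 arrays. Summed osteoblast markers ran from 760 to 1420 in DMM joints and 482 to 1260 in sham joints at 6 weeks, against 811 to 1520 in DMM joints and 511 to 1160 in sham joints at 1 week. The part of these cells in the differences was not tested.

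**Figure D3:**
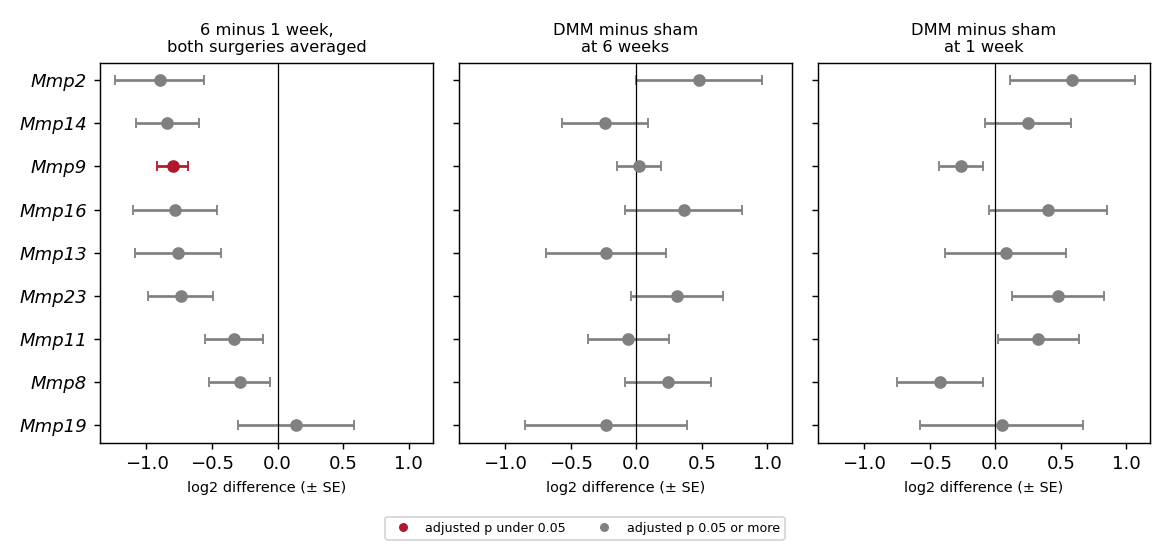
Log2 differences with standard errors for 9 matrix metalloproteinase genes: 6 minus 1 week averaged over both surgeries (left), DMM minus sham at 6 weeks (middle) and DMM minus sham at 1 week (right). Red marks an adjusted p under 0.05, which Mmp9 alone has, in the left panel (-0.80 ± 0.12); 8 of 9 points lie left of 0 there, against 4 of 9 in the middle and 2 of 9 in the right panel.

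The collagenases Mmp13 and Mmp8 had lower means at 6 weeks, averaged over both surgeries, without being called. Mmp13, which cuts fibrillar collagen in bone and cartilage, read 2.75, 2.07, 2.41 and 2.90 in DMM joints at 6 weeks, 2.22, 2.47, 2.69 and 3.67 in sham joints at 6 weeks, 4.72, 2.03, 4.03 and 3.03 in DMM joints at 1 week, and 3.23, 3.77, 3.40 and 3.10 in sham joints at 1 week. DMM joints at 1 week spread over the whole range of the 16 arrays, from the highest to the lowest value. The averaged difference was -0.76 ± 0.33 (adjusted p = 0.263). In the average over surgeries, both hypertrophic chondrocyte markers had higher means at 6 weeks (Col10a1 at 1.82 ± 0.75, adjusted p = 0.247, and Ihh at 0.23 ± 0.32, adjusted p = 0.833). The surgeries differed: after sham both were higher (median 2.14), and after DMM 1 was higher and 1 lower (median -0.1). Col10a1 stood at 3.57 ± 1.07 after sham (adjusted p = 0.593) and at 0.07 ± 1.07 after DMM. Their summed level ran from 0.169 to 2.51 in DMM joints and 0.727 to 8.78 in sham joints at 6 weeks, against 0.343 to 2.09 in DMM joints and 0.184 to 0.592 in sham joints at 1 week. In the 4 DMM joints at 1 week the summed osteoclast markers stood at 741, 380, 745 and 597 in the same order, and the summed osteoblast markers at 1360, 919, 811 and 1520; their part was not tested.

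Mmp8, the neutrophil collagenase, read 5.21, 5.96, 4.33 and 5.34 in DMM joints at 6 weeks, 5.22, 5.01, 4.76 and 4.89 in sham joints at 6 weeks, 4.37, 5.93, 5.23 and 5.15 in DMM joints at 1 week, and 5.34, 5.74, 5.44 and 5.84 in sham joints at 1 week. Its averaged difference between times was -0.29 ± 0.23 (adjusted p = 0.631), or 0 within slide 1 and -0.59 within slide 2. After sham surgery its 6-week joints were all lower than its 1-week joints, as 3.15% of all genes were. The log2 difference after sham was -0.62 ± 0.33 (adjusted p = 0.75). After DMM the difference was 0.04 ± 0.33 (adjusted p = 1), and the test of the difference between the surgeries gave 0.66 ± 0.47 (adjusted p = 1). Summed neutrophil markers, in the same order of joints, stood at 3330, 2310, 2640 and 3150 in DMM joints at 6 weeks, 2150, 2850, 2860 and 2730 in sham joints at 6 weeks, 1850, 3450, 2900 and 2590 in DMM joints at 1 week, and 3050, 2490, 3010 and 2670 in sham joints at 1 week. They shared the highest and the lowest joint with Mmp8 in DMM joints at 1 week. In both 6-week groups the joint with the highest Mmp8 had the lowest sum, and in sham joints at 1 week the joint with the lowest Mmp8 had the highest. Their part in the Mmp8 values was not tested.

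Of the stromelysins, Mmp3 was hardly detected and Mmp11 differed little. Mmp3 was well above background on 2 of 16 arrays, DMM_6wk replicate 4 (-3.57) and DMM_1wk replicate 4 (-3.65). On the other 14 its probe was not well above background, with values from -7.39 to -6.91 in the other DMM joints and -8.28 to -6.71 in sham joints at 6 weeks, and from -6.81 to -5.70 in the other DMM joints and -7.48 to -6.72 in sham joints at 1 week. No fold is given at either time, because 1 of 4 DMM arrays at each time and 0 sham arrays measured Mmp3. Mmp11 ran from -1.13 to -0.03 in DMM joints at 6 weeks, -0.81 to -0.37 in sham joints at 6 weeks, -0.63 to 1.01 in DMM joints at 1 week and -0.55 to -0.27 in sham joints at 1 week. The highest value belonged to 1 joint, DMM_1wk replicate 1, and the averaged difference between times was -0.33 ± 0.22 (adjusted p = 0.524), or -0.73 within slide 1 and 0.06 within slide 2.

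Mmp19, a soluble enzyme that cuts basement membrane proteins, was the member whose averaged difference was above 0 (0.14 ± 0.44, adjusted p = 0.932), and its values followed the slide. Probe A_66_P130161 read 0.63, 0.85, 0.34 and 0.10 in DMM joints at 6 weeks, 0.89, 2.66, -0.17 and -0.57 in sham joints at 6 weeks, 0.71, 1.82, -0.40 and -0.24 in DMM joints at 1 week and 1.10, 0.94, -0.25 and -0.11 in sham joints at 1 week. In each group the first 2 arrays, on slide 1, were higher than the last 2, on slide 2. The mean was -0.16 ± 0.28 on slide 2 and 1.20 ± 0.70 on slide 1 (SD, n = 8 each), a difference of -1.36 ± 0.27 (adjusted p = 0.00663), where 9.06% of all probes were called between the slides and 4.19% did not overlap. Since each slide holds 2 arrays of every group, the slide is not confounded with surgery or time.

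The second Mmp19 probe, A_55_P2495403, did not share this pattern. It ran from -0.44 to 0.09 on slide 2 and from -1.21 to 0.04 on slide 1, a difference of 0.21 ± 0.16 (adjusted p = 0.441). Over the 16 arrays the probes correlated at r = -0.66 and rho = -0.49 (permutation test, adjusted p = 0.0086 and 0.058 over 5 pairs of probes), and at r = -0.22 without the 2 arrays farthest from the median. For time this probe gave -0.16 ± 0.17 (adjusted p = 0.732), so neither probe was called and their signs differed. Slide differences of all 12 tested probes other than A_66_P130161 ran from -0.39 to 0.36, with adjusted p from 0.367 to 0.993.

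**Figure D4:**
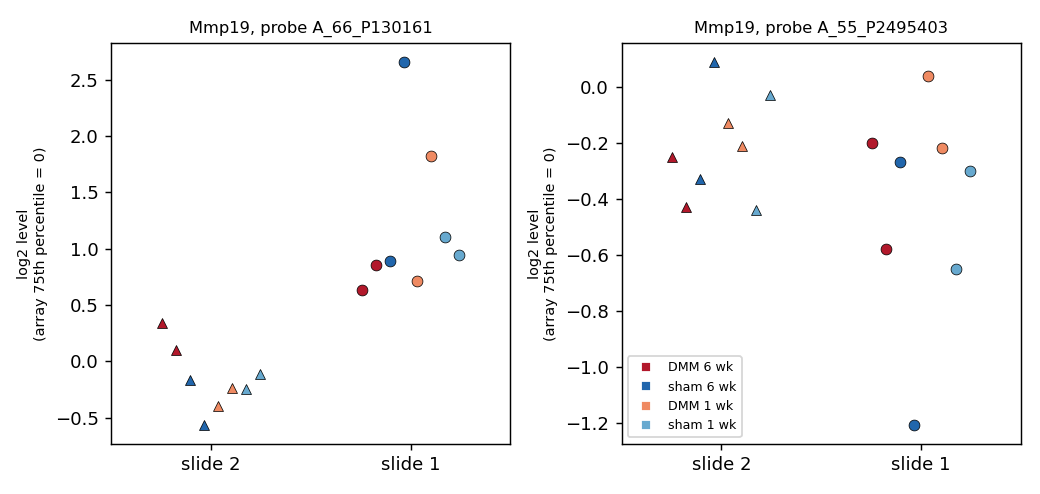
Log2 level of the 2 Mmp19 probes (0 is the array's 75th percentile) on slide 2 and slide 1, 8 arrays each, coloured by group. For probe A_66_P130161 all slide 1 values (0.63 to 2.66) lie above all slide 2 values (-0.57 to 0.34); for probe A_55_P2495403 the slides overlap.

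Destabilization, the treatment the study was built on, moved no metalloproteinase past the threshold. At 6 weeks 5 of 9 genes had a higher and 4 a lower mean after DMM, with a median of 0.02 against -0.02 over all genes, 53.5% of which had a lower mean. At 1 week 7 were higher and 2 lower, with a median of 0.25 against 0 over all genes, 49.2% of which had a lower mean. The average over both times uses as many joints as the averaged comparison of times. There 5 genes were higher and 4 lower after DMM, with a median of 0 against -0.01 over all genes, 51.8% of which were lower. These averaged differences ran from -0.12 ± 0.12 (Mmp9) to 0.54 ± 0.34 (Mmp2), and 0 of 28250 genes were called. Over all genes limma called 0 of 28250 at either time (0% called), with 220 at 6 weeks and 273 at 1 week at an unadjusted p of 0.05 (0.779% and 0.966%), none of them among the 9. Every member's adjusted p was 1 at 6 weeks and at 1 week, and no member's DMM and sham values were separate.

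The members' differences between DMM and sham were wide. At 6 weeks they ran from -0.24 ± 0.33 for Mmp14 to 0.48 ± 0.48 for Mmp2. At 1 week they ran from -0.42 ± 0.33 for Mmp8 to 0.59 ± 0.48 for Mmp2, with 0.48 ± 0.35 for Mmp23 and 0.40 ± 0.45 for Mmp16. The 95% interval for Mmp2 at 1 week, -0.44 to 1.62, spans both directions, while that for Mmp9 at 6 weeks, -0.34 to 0.38, is the narrowest of the 9. Destabilization effects at 6 weeks minus those at 1 week ran from -0.48 ± 0.47 (Mmp14) to 0.66 ± 0.47 (Mmp8), and limma called 0 genes there (193 at an unadjusted p of 0.05, 0.683%).

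The DMM differences at 1 week moved in both directions when single joints were left out. DMM_1wk replicate 1 held the highest of the 16 values for 5 of the 9 genes: Mmp2 (3.16, next 2.54), Mmp11 (1.01, next -0.03), Mmp13 (4.72, next 4.03), Mmp14 (1.41, next 0.80) and Mmp16 (0.11, next -0.32). Without it, 4 of 9 genes were higher and 5 lower after DMM at 1 week, and the median was -0.03. Leaving out replicate 2 of the same group moved the median the other way, to 0.47, with 6 of 9 genes higher. Without replicate 3 it was 0.40 (6 higher), and without replicate 4 it was 0.28 (7 higher). Spread within the group was also widest there: the median SD of the 9 genes was 0.45 in DMM joints at 6 weeks, 0.50 in sham joints at 6 weeks, 0.75 in DMM joints at 1 week and 0.29 in sham joints at 1 week, against 0.27, 0.55, 0.36 and 0.28 over all genes in the same groups. DMM_1wk replicate 1 was singled out after its values were seen.

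Across the 16 joints several members varied together. Of 36 pairs of genes, 13 passed a permutation test of Pearson's r adjusted over the pairs, all with positive r, and 12 of the 13 had the same sign on both slides. By Spearman's rho 9 of the 13 passed. Without the 2 farthest arrays r ran from 0.19 to 0.87 over the 13 pairs, and 4 were under 0.5: Mmp11 with Mmp16 (0.19, against 0.58 over all arrays), with Mmp14 (0.31, against 0.64) and with Mmp2 (0.41, against 0.74), and Mmp2 with Mmp13 (0.43, against 0.61). These 4 relations rest in part on those arrays. Mmp2 and Mmp23 correlated most closely (r = 0.93, rho = 0.95, adjusted p = 0.00036 for each; r = 0.87 without the 2 arrays farthest from the median of Mmp2; 0.94 within slide 1 and 0.97 within slide 2). Mmp2 and Mmp16 had r = 0.84 and rho = 0.81 (adjusted p = 0.0009 and 0.0059; r = 0.70 without 2 arrays; 0.86 and 0.96 within slides 1 and 2). Both relations remained after the means of group and slide were removed, at r = 0.92 and 0.84. Over the 13 pairs this r ran from 0.34 (Mmp9 with Mmp14) to 0.92. Time and slide differences that 2 genes share enter r over all 16 arrays. The share of all gene pairs that would pass was not determined, so the count of 13 has no background beside it.

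Mmp9 was in 2 of the 13 pairs. Because it separates the times, its pairs are given pooled and within each time. With Mmp14 it had r = 0.68 and rho = 0.65 (permutation test, adjusted p = 0.02 and 0.045; r = 0.68 without the 2 farthest arrays; 0.80 and 0.43 within slides 1 and 2). Within 6 weeks r was 0.30 and within 1 week 0.09 (n = 8 joints each), both lower than the pooled r. No test was run within a time, and 8 joints are too few to show that the relation is absent there. With Mmp13 it had r = 0.59 and rho = 0.60 (adjusted p = 0.047 and 0.058; r = 0.54 without the 2 farthest arrays; 0.64 and 0.52 within slides 1 and 2), with r = 0.70 within 6 weeks and 0.13 within 1 week. Mmp2 and Mmp13 (r = 0.61, adjusted p = 0.045) was the pair that differed in sign between slides, 0.92 within slide 1 and -0.03 within slide 2. Mmp8 and Mmp19 were in none of the 13 pairs.

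**Figure D5:**
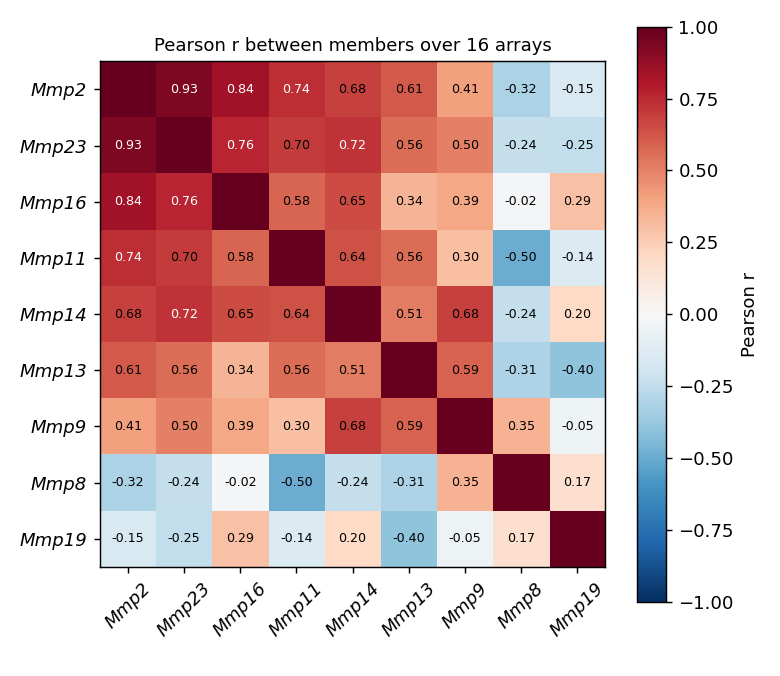
Pearson's r between each pair of the 9 tested genes over 16 arrays, from -1 (blue) to 1 (red). Mmp2, Mmp23, Mmp16, Mmp11, Mmp14 and Mmp13 form a block of positive values, with r from 0.34 to 0.93. Mmp9 also had positive r with each of them, from 0.30 (Mmp11) to 0.68 (Mmp14), so the block has no sharp edge there. Mmp8 and Mmp19 lie outside it.

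For each member the 3 genes with the highest r to it were taken from 16416 genes with a symbol that were above background on all 16 arrays, as a description over 16 arrays that share their depth and slides. Mmp2 was followed most closely by Pcsk5, a proprotein convertase of the kind that removes propeptides (r = 0.98), with Kazald1 (0.98) and Rftn2 (0.97). Mmp14 was followed by Grb10 (0.99), Pmepa1 (0.99) and the proteoglycan gene Cspg4 (0.97), and Mmp16 by the collagen gene Col5a1 (0.96), Gnai1 (0.96) and Copz2 (0.95). Mmp23 went with Plcd1 (0.96), Gpx7 (0.96) and Slc2a10 (0.95), and Mmp11 with Tspan12 (0.95), Adamts7 (0.93) and the basement membrane gene Nid2 (0.93).

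The other members had different neighbours. Mmp9 was followed by 9530068E07Rik (0.92), Tsen34 (0.90) and Arap3 (0.90), Mmp13 by Snx10 (0.95), Kidins220 (0.94) and Cyp4v3 (0.93), and Mmp8 by Gda (0.96), Pilrb2 (0.94) and Slc22a20 (0.93). Mmp19, read by the probe that followed the slide, went with the olfactory receptor gene Olfr1392, Gm35268 and Iqcf1, each at 0.99.

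Promoters from RefSeq (GRCm38.p6, 250 bases before to 50 after the gene's start) were at hand for 6 of the 10 genes, Mmp3, Mmp8, Mmp11, Mmp13, Mmp14 and Mmp23. The 250 bases before the start are shown for Mmp14 and Mmp23, which varied together (r = 0.72), and for the collagenase Mmp13. Capitals mark, on either strand, the AP-1 motif TGAGTCA, the RUNX motif TGTGGT, the TATA box TATAAA and the GC box GGGCGG, none of which overlaps another kind here.
Mmp14 chr14:54431348-54431597 (plus strand): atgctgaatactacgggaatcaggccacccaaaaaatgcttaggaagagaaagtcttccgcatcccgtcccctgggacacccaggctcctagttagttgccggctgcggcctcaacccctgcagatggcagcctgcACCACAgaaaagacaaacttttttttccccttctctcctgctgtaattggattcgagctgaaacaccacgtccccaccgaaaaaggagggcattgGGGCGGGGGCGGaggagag
Mmp23 chr4:155653385-155653634 (minus strand): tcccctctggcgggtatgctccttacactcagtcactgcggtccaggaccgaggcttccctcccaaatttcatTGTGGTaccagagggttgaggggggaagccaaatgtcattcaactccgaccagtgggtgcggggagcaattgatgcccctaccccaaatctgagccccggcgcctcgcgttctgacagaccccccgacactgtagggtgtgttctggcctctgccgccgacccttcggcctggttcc
Mmp13 chr9:7272264-7272513 (plus strand): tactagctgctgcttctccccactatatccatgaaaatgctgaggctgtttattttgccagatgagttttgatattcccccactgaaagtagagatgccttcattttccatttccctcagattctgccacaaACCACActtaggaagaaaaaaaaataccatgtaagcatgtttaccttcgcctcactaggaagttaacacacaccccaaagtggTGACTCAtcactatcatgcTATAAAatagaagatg
The Mmp13 window held an AP-1 motif that starts 35 bases before the gene's start, a RUNX motif at 118 bases and a TATA box at 16 bases before it. The Mmp14 window held a RUNX motif at 114 bases and 2 GC boxes that abut, at 19 and 13 bases before the start. The Mmp23 window shown held a RUNX motif at 177 bases. The table has 2 starts for Mmp23, and the window of the other start, not shown, held no RUNX motif and 2 GC boxes, at 19 and 39 bases after that start. Mmp3 was the other member with the AP-1 motif, at 46 bases. In all 32851 promoters of the table, 5.2% held the AP-1 motif, 16.8% the RUNX motif, 13.6% the TATA box and 35.7% the GC box within 300 bases. These are matches of letters, and binding was not measured.

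Among the partners of the metalloproteinases, Timp1, the inhibitor that binds the Mmp9 precursor, fell with time as well. It read 2.71, 2.20, 2.78 and 2.99 in DMM joints at 6 weeks and 1.71, 3.42, 2.24 and 2.83 in sham joints at 6 weeks, against 4.15, 3.98, 3.60 and 4.32 after DMM and 3.49, 3.90, 3.21 and 3.68 after sham at 1 week. All but 1 of the 6-week joints, sham_6wk replicate 2, lay below all 1-week joints. The averaged difference was -1.18 ± 0.22 (adjusted p = 0.0347), which is 0.441 of the 1-week level, and -1.37 and -0.99 within slides 1 and 2. The adjusted p ran from 0.017 to 0.0973 when arrays were left out in turn, with the call kept in 4 of 16 fits.

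The lists of related genes were counted in the same averaged comparison. Of 8 inhibitors 4 had a lower mean, with a median of -0.15, and Timp1 was the 1 called; Timp4 stood at 0.69 ± 0.21 (adjusted p = 0.109) and Timp2, which links Mmp14 to the Mmp2 precursor, at -0.40 ± 0.18 (adjusted p = 0.286). Of 12 activators, docking and clearance proteins, 9 had a lower mean (median -0.38, 0 called), among them the collagen uptake receptor Mrc2 (-0.91 ± 0.30, adjusted p = 0.138), the hyaluronan receptor Cd44 (-0.41 ± 0.15, adjusted p = 0.18) and Pcsk5 (-0.70 ± 0.30, adjusted p = 0.261). Of 9 substrates, 6 had a lower mean (median -0.26, 0 called), among them Col3a1, a fibrillar collagen (-2.34 ± 0.61, adjusted p = 0.0749), fibronectin (Fn1, -0.54 ± 0.19, adjusted p = 0.158) and osteopontin (Spp1, -0.50 ± 0.19, adjusted p = 0.189).

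Of 13 other matrix metalloproteinases on the arrays, 9 were tested, 6 of them with a lower mean (median -0.13, 0 called). The lowest was Mmp25, a membrane enzyme of leukocytes (-0.64 ± 0.19, adjusted p = 0.107), followed by Mmp7 (-0.36 ± 0.36, adjusted p = 0.738) and Mmp12 (-0.30 ± 0.40, adjusted p = 0.82, above background on 4 arrays). For DMM against sham at 1 week, 8 of 9 substrates and all 7 osteoblast markers had a higher mean, with medians of 0.38 and 0.35. None of either list was called, and Col1a1 is on both. This was not particular to them: all tested adipocyte (median 0.74), hypertrophic chondrocyte (1.36), fibroblast (0.29), muscle (0.31), B cell (0.29) and endothelial markers (0.17) were higher too. Of the neutrophil markers 8 of 10 were lower, and of the macrophage markers 5 of 6. At 6 weeks 5 of 9 substrates and 3 of 7 osteoblast markers were higher (medians 0.02 and -0.04).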

How the data were processed

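The deposited files are scanner output of Agilent Feature Extraction 10.7.3.1, per the file headers: a background-corrected, single-colour intensity per spot, flags, and probe coordinates on mm9. The software had replaced 14.3% of spot values near background by surrogates. The authors also deposited a log2 value table of 50815 probes, with array medians of 7.24 to 7.34, made with limma 3.20.9 per the submitters' processing notes. It correlated with the log2 scanner values at 0.992 to 0.997 per array with slopes of 0.859 to 0.999, so it runs the same way. It served as an alternative, and the sources used here do not give its background and between-array steps.

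Control spots and spots with outlier flags were left out, spots of a probe were averaged, and log2 intensities were set against each array's 75th percentile. No spot was saturated, and 65.2% to 79.5% of probes were above background. Repeated spots of a probe varied by 2.24% to 4.47%, and the number of arrays limits the precision: the median standard error was 0.30 for 4 against 4 and 0.21 for 8 against 8. Probes were named by accession (32994), current symbol (10224), older symbol (520) or the file's name (12867), and a gene with several probes was represented by the one with the highest mean. The main test was limma 3.58.1 (1 mean per group, lmFit, contrasts.fit, eBayes, 12 residual and 3.01 prior degrees of freedom) with 2-sided p-values adjusted by Benjamini-Hochberg over 28250 genes, a threshold of 0.05, and 7 comparisons. Correlations used 100000 permutations. The fit was tested on simulated data. Alternatives covered background correction, scaling, detection filter, slide, array weights, groups fitted, probe choice, the value table, flagged spots and each array left out. All members were named, with up to 3 genes of each related list by smallest p and the 3 genes most like each member. The members and lists were chosen with earlier results of these data known. The replicate numbers follow the order of the records. Scripts ran in Python 3.11.15 with matplotlib 3.10.9 and in R 4.3.3 with data.table (version 1.17.8) and jsonlite 2.0.0.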

Additional observations from a re-analysis of the deposited data

Results flagged for a closer look

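In 52 sets of 4 arrays (13 probes in 4 groups), 2 held a value far from the other 3 by Dixon's test, and chance flags about 1 set in 20. Mmp16 probe A_55_P2731321 read -3.32 in sham_6wk replicate 2, against -5.30 to -5.09 on the other sham arrays at 6 weeks, 2 of which were not well above background. Mmp16 probe A_55_P2803702 read -2.22 in sham_1wk replicate 3, against -0.90 to -0.76 on the other sham arrays at 1 week.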

How the results depend on the processing

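No paired analysis was possible because the replicate numbers follow the order of the records and no label links joints of different groups. Averaged over both surgeries, 247 genes were called between 6 and 1 weeks, against 427 with normexp background correction, 451 for probes above background on all 16 arrays, 645 with slide as a block, 5884 with array weights, and 0 with the median of each array or with no detection filter; leaving out each array gave 0 to 1502. After DMM, 0 genes were called between times, against 963 with array weights and 0 to 27 with an array left out. After sham it was 0, against 3305 with array weights and 0 to 1. Array weights gave 1 gene for DMM against sham at 6 weeks (0 to 1 with an array left out) and 2 for the difference of the DMM effect between times, against 0 in each. Mmp9 averaged over surgeries had adjusted p = 0.0537 with the median of each array, 0.0556 with no filter and 0.00146 with array weights, and lay between -0.91 and -0.69 under all 30 alternatives. With array weights Mmp2 (adjusted p = 0.00845), Mmp13 (0.0416), Mmp14 (0.00486), Mmp16 (0.00674) and Mmp23 (0.0176) were called lower too. The causes were not tested. Mmp2, Mmp9, Mmp13, Mmp14, Mmp16 and Mmp23 stayed below 0 for this comparison under every alternative run, while Mmp8, Mmp11 and Mmp19 reached 0 or changed sign under 1, 1 and 5. Of 1603 alternative values for the members, 121 changed sign, none of them a called value. Quantile normalization and the array median moved the median of all genes by under 0.1.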
